A study of Mus musculus with 4 samples.

Results

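The 10 genes described here, Fcna, Folr2, Lyve1, Cd163, Mrc1, F13a1, Pf4, Adgre1, Fcgr1 and Cx3cr1, are used as markers of tissue macrophages. Fcna, Folr2 and Lyve1 were selected on their higher signal on both germ-free arrays of these data, and 7 further macrophage genes were added to them. They are 10 of 20633 named genes on the arrays and were read by 13 of 55597 probes. Because the difference between germ-free and SPF arrays chose them, their housing values are a description and support nothing. The genotype difference within each housing was not used to select Fcna, Folr2 and Lyve1. All 10 genes were, however, chosen with earlier results of these data known.

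Gene expression was measured on 1-colour Agilent arrays in flow-sorted dendritic cells taken from the lamina propria of the colon, the layer of connective tissue below the gut lining. The mice were C57BL/6J and either wild-type (WT) or CD300a deficient (KO), and were kept germ-free (GF) or specific pathogen-free (SPF). CD300a is an inhibitory receptor of myeloid cells that binds lipids exposed on dying cells. The 4 groups were therefore KO GF, WT GF, KO SPF and WT SPF, each on 1 array made from the cells of 5 mice, so no group has a replicate. Per the labels the GF mice were male and the SPF mice female, while the age of the mice, the surface gate of the sort and the way Cd300a was inactivated are not given in the sources used here.

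Macrophages of the gut wall are mostly renewed from blood monocytes, but longer-lived resident macrophages sit around vessels, nerves and deeper layers. Fcna, Folr2, Lyve1, Cd163 and Mrc1 are typical of such resident and perivascular macrophages in many tissues and encode secreted or surface proteins that bind sugars, folate, hyaluronan, haemoglobin complexes and glycoproteins. Adgre1, Fcgr1 and Cx3cr1 are instead shared by most intestinal macrophages, and surface proteins of macrophages and dendritic cells overlap in the colon.

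Several features of the arrays bear on every value. Both GF arrays were on slide 2 and scan 2 and both SPF arrays on slide 1 and scan 1, so slide, scan, labelled sex and housing cannot be told apart. The Cd300a probe had levels of 8.05 on the array labelled KO GF and 7.60 on WT GF, and of 7.91 on the array labelled KO SPF and 7.88 on WT SPF, so it was not lower on either KO-labelled array, and whether it lies in the deleted part is not given. Xist, which is made in female cells, was above background on the KO GF array (level 3.62) although those mice were labelled male, and not on WT GF. The Y-linked genes Ddx3y and Eif2s3y were above background on both GF arrays, with 0.59 and -0.59 on KO GF and 2.07 and 0.31 on WT GF, so the KO GF array held both signals. On the KO SPF array, labelled female, Eif2s3y was above background as well (-2.56), and Ddx3y was not. The WT housing pair is the housing comparison without either KO-labelled array. Between 13795 and 15052 of 20633 named genes were above background on an array. Of the labelled cell type, 11 of 12 conventional dendritic cell markers measured were above background on both GF arrays and 12 of 12 on both SPF arrays, and 13 of 13 general macrophage genes on all 4 arrays.

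Each level is the log2 processed signal of the scanner with the array's own 75th percentile taken away, so a level of 0 is the 75th percentile of all probes. A level serves to compare arrays for 1 gene and not 1 gene with another. A difference of 1 between levels is 2-fold, and 2-fold was the line used to count genes. No group has a replicate and no p-value was computed. Each of the 13 probes was printed as 1 spot. Over 399 probes printed as 10 spots, the SD between spots of an array had a median of 0.26 at levels from -8 to -2 and of 0.06 at levels from 4 to 12, which covers printing and scanning error and not the spread between mice or preparations. All 13 probes were above background on all 4 arrays.

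Promoter sequences are shown for Fcna and Folr2, which chose the set, for Cd163, a gene higher on GF whose window held neither motif searched, and for the general markers Fcgr1 and Cx3cr1, of which the window of Fcgr1 held a motif and that of Cx3cr1 did not. RefSeq promoters of GRCm38.p6, 250 bases before to 50 after each start, were found for 8 of the 10 genes, and not for Lyve1 and Adgre1. In the lines that follow, capitals mark AGGAAGT or its reverse complement ACTTCCT, a motif of the PU.1 type, and TGCTGA or its reverse complement TCAGCA, a MAF half-site. These motifs share no overlap with each other in the windows shown. Fcna lies at chr2:25627925-25628224 on the minus strand, the 2 starts of Folr2 at chr7:101857141-101857440 and chr7:101845282-101845581 on the minus strand, Cd163 at chr6:124304401-124304700 on the plus strand, Fcgr1 at chr3:96293920-96294219 on the minus strand and Cx3cr1 at chr9:120068247-120068546 on the minus strand.
Fcna: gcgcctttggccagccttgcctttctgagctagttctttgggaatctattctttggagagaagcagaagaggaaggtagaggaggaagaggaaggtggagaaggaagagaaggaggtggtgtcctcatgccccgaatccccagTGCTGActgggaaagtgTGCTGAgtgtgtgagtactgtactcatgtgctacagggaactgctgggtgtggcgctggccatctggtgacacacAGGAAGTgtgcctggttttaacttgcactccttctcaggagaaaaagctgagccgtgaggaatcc
Folr2, upstream start: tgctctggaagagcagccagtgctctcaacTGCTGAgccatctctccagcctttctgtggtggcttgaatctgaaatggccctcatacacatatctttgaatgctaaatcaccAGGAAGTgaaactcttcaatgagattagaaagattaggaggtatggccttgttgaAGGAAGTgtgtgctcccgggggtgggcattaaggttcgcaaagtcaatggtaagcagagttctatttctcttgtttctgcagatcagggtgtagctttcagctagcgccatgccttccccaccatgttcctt
Folr2, downstream start: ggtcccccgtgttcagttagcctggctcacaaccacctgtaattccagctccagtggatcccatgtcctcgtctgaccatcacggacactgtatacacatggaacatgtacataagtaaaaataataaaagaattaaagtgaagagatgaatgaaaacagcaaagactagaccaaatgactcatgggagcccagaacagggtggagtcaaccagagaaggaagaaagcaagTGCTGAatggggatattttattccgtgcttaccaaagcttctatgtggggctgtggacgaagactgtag
Cd163: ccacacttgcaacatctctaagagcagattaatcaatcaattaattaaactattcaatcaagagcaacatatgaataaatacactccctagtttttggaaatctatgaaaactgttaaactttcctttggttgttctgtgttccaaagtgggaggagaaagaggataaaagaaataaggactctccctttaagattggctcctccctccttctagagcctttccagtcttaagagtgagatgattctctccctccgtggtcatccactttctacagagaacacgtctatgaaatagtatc
Fcgr1: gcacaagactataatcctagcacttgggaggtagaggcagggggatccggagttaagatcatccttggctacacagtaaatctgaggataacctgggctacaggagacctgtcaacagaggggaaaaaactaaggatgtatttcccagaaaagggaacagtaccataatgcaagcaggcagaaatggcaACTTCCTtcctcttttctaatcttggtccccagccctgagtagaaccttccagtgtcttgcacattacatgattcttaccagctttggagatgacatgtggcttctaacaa
Cx3cr1: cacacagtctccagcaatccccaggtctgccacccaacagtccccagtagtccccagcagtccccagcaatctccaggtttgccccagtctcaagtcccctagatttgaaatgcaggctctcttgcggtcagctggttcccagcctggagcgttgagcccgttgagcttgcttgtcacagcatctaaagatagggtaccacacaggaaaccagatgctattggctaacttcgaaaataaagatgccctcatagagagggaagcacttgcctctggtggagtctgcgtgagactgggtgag

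The Fcna window held the PU.1-type motif once, at -15 from the start, and the MAF half-site 2 times, at -107 and -90. The upstream Folr2 window held the PU.1-type motif at -137 and -82 and the MAF half-site at -220, and the downstream window the half-site at -19. Fcgr1 held the PU.1-type motif at -61, on the opposite strand, and Cd163 and Cx3cr1 held neither. Over the 8 genes, the PU.1-type motif was in windows of 6 (Fcna, Folr2, Mrc1, F13a1, Pf4 and Fcgr1), and in 6 of their 10 windows, against 9.35% of 32851 mouse promoters. The MAF half-site was in 3 of the 10 windows, of Fcna and Folr2, against 19.5% of promoters, and TATAAA, searched on both strands as well, was in 0 of the 10, against 13.6%. Such matches are letters in a window and say nothing of a factor's binding.

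Fcna, Folr2 and Lyve1 were far higher on the GF arrays in KO-labelled and in WT cells. Fcna encodes ficolin A, a secreted lectin that binds sugars on microbes and starts the lectin pathway of complement. Its level was 1.98 on KO GF and 2.50 on WT GF, against -2.58 on KO SPF and -3.17 on WT SPF. Both GF arrays lay above both SPF arrays. GF over SPF, Fcna was 23.4-fold higher in KO-labelled cells (difference 4.55) and 51.1-fold higher in WT cells (difference 5.67).

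Folr2 encodes folate receptor beta, a lipid-anchored receptor that takes up folate. Its level was 3.46 on KO GF and 4.11 on WT GF, against -0.40 on KO SPF and -0.15 on WT SPF. The GF and SPF arrays did not overlap, and the fold was 14.5 in KO-labelled cells and 19.2 in WT cells (differences 3.86 and 4.26).

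Lyve1 encodes a hyaluronan receptor that is found on perivascular macrophages and also on lymphatic endothelium. Its level was 3.23 on KO GF and 3.36 on WT GF, against -2.63 on KO SPF and -2.38 on WT SPF. The arrays again did not overlap between housings. The Lyve1 housing difference was 5.86 in KO-labelled cells (58.1-fold) and 5.74 in WT cells (53.5-fold). Ranked from the top, the KO difference among 15569 genes and the WT difference among 15653 genes stood at 283 and 105 for Fcna, 447 and 248 for Folr2, and 111 and 100 for Lyve1.

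**Figure D1:**
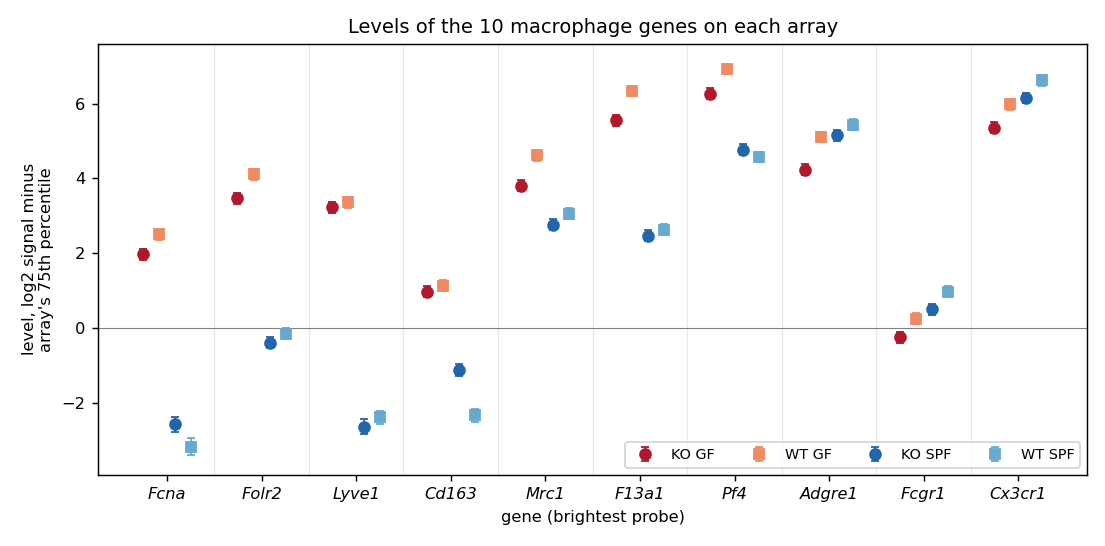
Level of each of the 10 genes on the 4 arrays, in log2 units relative to the array's 75th percentile, each point 1 array and 1 probe with the error given by the scanner software as a bar. Fcna, Folr2 and Lyve1 sit above 1.9 on both GF arrays and below 0 on both SPF arrays, while Adgre1 (by this probe), Fcgr1 and Cx3cr1 are a little lower on the GF arrays.

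The scavenger receptors and secreted factors of resident macrophages were also higher on the GF arrays, by less. Cd163, the receptor that takes up haemoglobin bound to haptoglobin, had a level of 0.98 on KO GF and 1.14 on WT GF, against -1.12 on KO SPF and -2.34 on WT SPF. Its fold was 4.29 in KO-labelled cells and 11.1 in WT cells, and the KO SPF array held the higher of the SPF levels. With normexp background correction the Cd163 difference was 1.63 in KO-labelled and 2.22 in WT cells, in place of 2.10 and 3.47. Mrc1, the mannose receptor, which takes up glycoproteins and collagen, had a level of 3.81 on KO GF and 4.62 on WT GF, against 2.76 on KO SPF and 3.06 on WT SPF. Both Mrc1 differences were the smallest of the 7 higher genes, 2.07-fold in KO-labelled cells and 2.95-fold in WT cells.

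F13a1 encodes the catalytic subunit of coagulation factor XIII, a crosslinking enzyme made by resident macrophages. Its brighter probe read 5.55 on KO GF and 6.33 on WT GF, against 2.47 on KO SPF and 2.63 on WT SPF. Its other probe read 1.79 on KO GF and 2.23 on WT GF, against -0.74 on KO SPF and -1.0 on WT SPF. Both probes placed the GF arrays above the SPF arrays, with differences of 3.08 and 2.53 in KO-labelled cells and of 3.70 and 3.23 in WT cells. Pf4, a chemokine of platelet granules that macrophages also make, had a level of 6.26 on KO GF and 6.93 on WT GF, against 4.76 on KO SPF and 4.57 on WT SPF. The Pf4 fold was 2.82 in KO-labelled cells and 5.10 in WT cells.

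Of the 3 general markers, Cx3cr1 and Fcgr1 were lower on the GF arrays by less than 2-fold, and Adgre1 had probes that disagreed. Cx3cr1, the fractalkine receptor, had a level of 5.36 on KO GF and 5.98 on WT GF, against 6.15 on KO SPF and 6.62 on WT SPF. Fcgr1, the high-affinity receptor for IgG, had a level of -0.25 on KO GF and 0.25 on WT GF, against 0.51 on KO SPF and 0.97 on WT SPF. Both genes lay below the SPF levels on both GF arrays, with differences of -0.79 and -0.64 for Cx3cr1 and of -0.76 and -0.71 for Fcgr1, in KO-labelled and in WT cells. The other Cx3cr1 probe gave -0.57 in KO-labelled and -0.12 in WT cells.

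Adgre1, an adhesion receptor that is the classic surface antigen of mouse macrophages, depended on the probe. Its brighter probe read 4.23 on KO GF and 5.11 on WT GF, against 5.15 on KO SPF and 5.44 on WT SPF, differences of -0.92 and -0.33. Its other probe read 2.99 on KO GF and 3.94 on WT GF, against 2.95 on KO SPF and 3.13 on WT SPF, differences of 0.04 and 0.81. The probes thus pointed in opposite directions, and the mean of both gave 0.24 for WT cells.

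By the brighter probe of each gene, 7 of 10 genes were at least 2-fold higher on GF in KO-labelled cells, where 21.6% of all genes were so, and 0 of 10 were at least 2-fold lower, where 15.4% were. In WT cells 7 of 10 were at least 2-fold higher, against 17.5% of genes, and 0 of 10 lower, against 9.44%. Both GF arrays lay above both SPF arrays for the 7 genes and below them for the other 3, as they did for 34.2% and 26.1% of all genes. The same 7 genes were at least 2-fold higher in both genotypes, against 11.2% of all genes, and 0 were lower in both, against 4.76%. The median over the 10 genes was 1.80 in KO-labelled and 2.91 in WT cells, against 0.05 and 0.13 over all genes. The choice of the genes used this contrast, so nothing is read from these counts and medians.

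Differences taken against Adgre1 on the same arrays do not depend on the constant by which an array was scaled. Relative to the brighter Adgre1 probe, the GF over SPF difference of Fcna was 5.47 in KO-labelled and 6.01 in WT cells, and that of Lyve1 was 6.78 and 6.07. That probe was itself lower on GF (-0.92 and -0.33), which enlarges these values. The other Adgre1 probe (0.04 and 0.81) would give smaller ones. In bulk samples such as these, fewer cells of a type and less RNA per cell cannot be told apart.

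**Figure D2:**
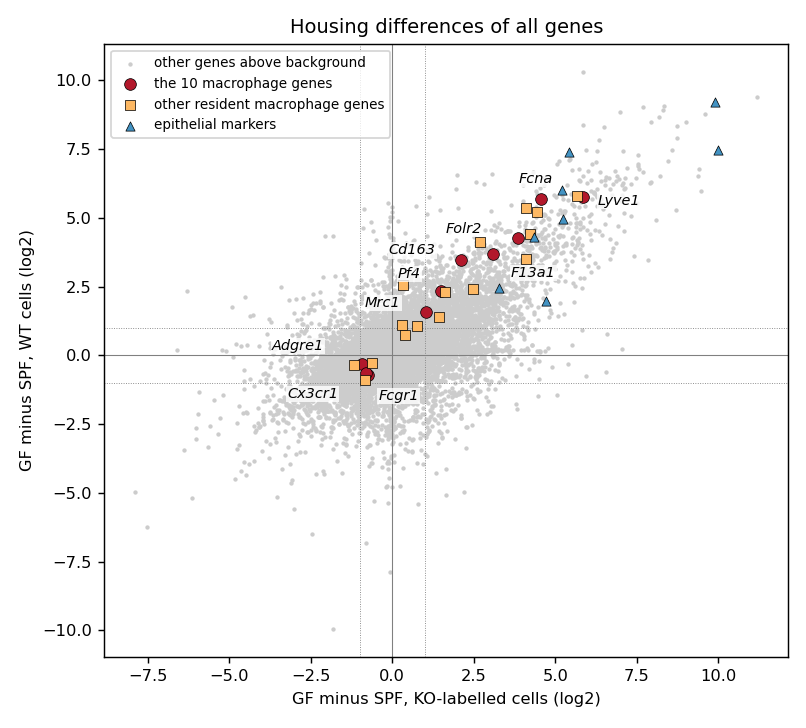
GF minus SPF difference (log2) of each gene in KO-labelled cells (horizontal axis) and WT cells (vertical axis), with dotted lines at 2-fold. The 10 genes are red circles, 7 of them beyond both upper lines and 3 just below 0 on both axes, and the epithelial markers are blue triangles in the same upper right region.

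Other genes known from resident macrophages were set beside the 10. Of 16 such genes, 9 were at least 2-fold higher on GF in both genotypes and 0 lower in both, with medians of 1.53 in KO-labelled and 2.36 in WT cells. Over all genes 11.2% were higher in both and 4.76% lower in both, and these shares apply to the counts of every list below. This list, like the others, was written with earlier results of these data known, so its counts support nothing. Cd209f, a C-type lectin, differed by 5.66 in KO-labelled cells and 5.81 in WT cells. Cbr2, a carbonyl reductase, differed by 4.22 and 4.40 in the same order. Vsig4, a complement receptor, was not well above background on the SPF arrays and was at least 4.82-fold higher in KO-labelled and at least 10.9-fold higher in WT cells, and Cd209g was at least 17-fold higher in KO-labelled cells and 5.35 log2 units higher in WT cells. The remaining 5 were Stab1, Gas6, Igf1, Ccl24 and Ednrb. Mgl2, another lectin, was -1.19 and -0.35 apart, and Siglec1 depended on the probe, with 0.76 and 1.08 by the brighter and 2.96 and 3.12 by the other probe.

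For the general macrophage genes the picture was mixed. By the brightest probes of the 13 measured, 0 were at least 2-fold different in the same direction in both genotypes, and their medians were -0.71 in KO-labelled and -0.04 in WT cells. Mertk, a receptor for the uptake of dying cells, was highest with 0.98 and 1.06, and C1qa, a complement subunit, had -1.02 and -0.27. Cd14 and Trem2 had the lowest KO values, -1.80 and -1.73. Itgam, an integrin subunit, depended on the probe, with -0.51 and -0.56 by the brightest probe and -2.64 and -2.66 and -1.89 and -2.37 by its other probes.

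Among 9 transcription factors of macrophages, 0 were at least 2-fold higher in both genotypes and 2 were lower, with medians of -0.84 in KO-labelled and 0.10 in WT cells. Spi1, which encodes PU.1, was lower by -2.77 in KO-labelled and -1.71 in WT cells, and Runx3 by -2.53 and -1.34, although its other probe gave -2.43 and -0.73. The other probe of Nr1h3 was also lower in both (-1.20 and -1.19), while its brighter probe was not past 2-fold. Maf, a factor of resident macrophages, differed by 0.62 in both. Among 8 ligands and signals, Il34 (1.44 and 2.50) and Cx3cl1, the ligand of Cx3cr1 (1.85 and 1.47), were higher. Csf1, the main macrophage growth factor, was lower by its brightest probe (-2.84 and -3.53). That probe read -3.63 on KO GF, near the lowest level above background there (-3.95), and -2.74 on WT GF. The other Csf1 probes were above background on WT SPF alone. The list medians were -0.73 and 0.21. Of 8 genes of haem and iron handling, Slc40a1, the iron exporter ferroportin, was higher in both (4.24 and 3.94), and Hmox1, the enzyme that breaks down haem, had -1.71 in KO-labelled and 0.14 in WT cells. The medians of that list were -0.84 and -0.01.

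Most close relatives of the 10 genes did not pass 2-fold in the same direction in both genotypes. Of 19 relatives, Izumo1r, a folate receptor relative (1.19 and 1.0), and Ly75, a relative of the mannose receptor (1.01, and at least 2.22-fold in WT cells), were at least 2-fold higher in both genotypes. Fcgr4, another IgG receptor, was lower (-2.10 and -1.96). Fcgr3 was lower by less than 2-fold (-0.73 and -0.41), as Fcgr1 was, while Fcgr2b had -0.21 and 0.16. Mrc2, F13b and Cd163l1 were not well above background on any array, and the medians over the relatives measured were -0.13 and 0.01.

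Markers of other cell types moved with the housing too. All 8 epithelial markers were at least 2-fold higher on GF in both genotypes, with medians of 5.23 in KO-labelled and 5.47 in WT cells. Their summed level, in linear units of the array's 75th percentile, was 374 on KO GF and 225 on WT GF, against 4.52 on KO SPF and 3.21 on WT SPF. Cdh1 was not well above background on either SPF array, Krt20 not on KO SPF and Krt8 not on WT SPF. The part of epithelial RNA in the housing differences of the 10 genes was not tested.

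Lyve1 is also a lymphatic marker, and of 7 lymphatic endothelial markers measured 3 were above background on KO GF and 5 on WT GF, against 2 on KO SPF and 3 on WT SPF. Prox1, the factor that defines lymphatic endothelium, differed by 0.26 in KO-labelled and 0.15 in WT cells. Mmrn1 was at least 4.91-fold and at least 7.34-fold higher, Pdpn was lower (-2.54 and -1.80), and Reln and Tbx1 were not well above background on any array. The medians over those measured in a pair were 0.26 and 0.78. Their summed level was 0.958 on KO GF and 1.28 on WT GF, against 2.04 on KO SPF and 1.33 on WT SPF, of which Pdpn alone made 1.74 and 1.05, so the SPF sums mostly show that 1 probe.

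Pf4 and F13a1 are also made by platelets. Of 8 platelet markers, Itga2b was at least 2.32-fold higher in KO-labelled and at least 2.01-fold higher in WT cells, Ppbp had -2.32 and 0.11, and Gp9 and Gp1ba were not well above background on any array. The medians over those measured were 0.87 (0.66 with dim genes at their bound) and 0.41. The summed platelet level was 5.89 on KO GF and 5.68 on WT GF, against 4.48 on KO SPF and 6.84 on WT SPF. Treml1 alone made 2.89 of the WT SPF sum and had opposite signs, 1.40 in KO-labelled and -3.17 in WT cells. Gp1bb was the largest part of the other sums. Of 7 monocyte markers, Ccr2 (-2.52 and -2.04) and Fn1 (-1.11 and -1.38) were lower in both genotypes, with medians of -0.04 and -0.73. The KO median is the value of Ms4a4c, which depended on the probe. Its brightest probe gave -0.04 and 0.02, and its other probes -2.04 and -0.96, and -2.38 and -1.22. Of 12 conventional dendritic cell markers, Itgax (-2.29 and -1.13) and Xcr1 (at least 8.20-fold and at least 3.22-fold) were lower in both, with list medians of -1.26 and -0.12. Of 8 blood endothelial markers 0 passed the line in both genotypes, with medians of 0.38 and 0.73, and of 8 fibroblast and muscle markers Lum (1.12 and 1.03) was higher and Myh11 (-1.09 and -2.40) lower, with medians of 1.04 and 0.24. Of 6 neutrophil markers 4 were at least 2-fold lower in both by their measured values and 0 higher. The medians were -2.58 in KO-labelled and -2.31 in WT cells (-0.92 and -2.07 with dim genes at their bound). Of the 4, S100a9 and Retnlg also passed 2-fold in both genotypes when bounds were used. Cxcr2 and Mmp8 were dim in GF cells of both genotypes. In KO-labelled cells they were at least 1.895-fold and at least 1.455-fold lower, bounds short of the 2-fold line.

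**Figure D3:**
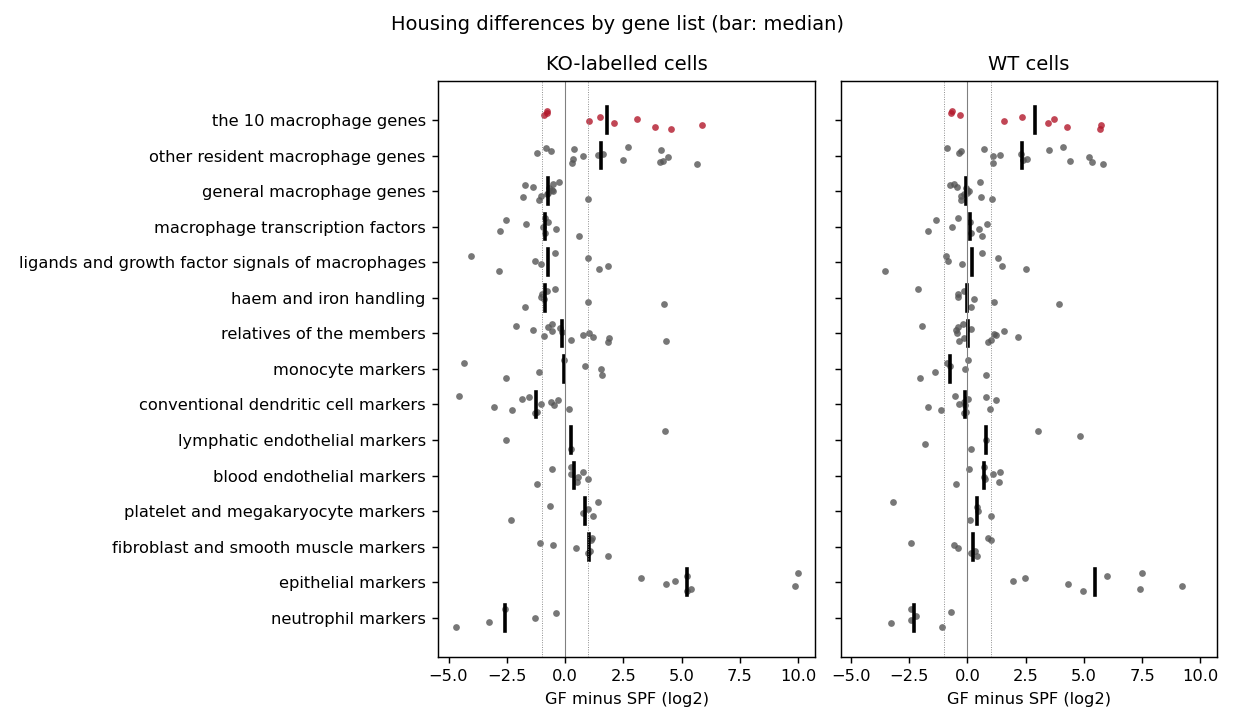
GF minus SPF difference (log2) of every measured gene of each list, in KO-labelled and WT cells, each point 1 gene at its measured value and each black bar the list's median. The other resident macrophage genes spread from -1.19 to 5.81, the general macrophage genes stay between -1.80 and 1.06, and all epithelial markers lie above 1.9.

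The genotype comparison asks how CD300a-deficient cells differ from WT cells of the same housing, and it shares its arrays with the housing comparisons. Within GF housing, 0 of the 10 genes reached a 2-fold difference in KO-labelled over WT cells in either direction, where 8.81% of all genes were higher and 7.77% lower. All 10 differences were below 0 (8 of 10 in the deposited table), as were 61.0% of all genes, and 8 of the 10 lay below the median of all genes. The median over the 10 genes was -0.63, against -0.20 over all genes, and the values spanned -0.88 (Adgre1) to -0.14 (Lyve1). The size depended on the scaling: the median was -0.29 after quantile scaling (all genes -0.15), -0.35 after cyclic loess (all genes -0.09) and -0.35 in the deposited table (all genes 0.08). Over the alternatives the Adgre1 difference ranged from -0.91 to -0.45 and that of Cx3cr1 from -0.62 to -0.14.

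The sign of the 2 smallest GF differences depended on the scaling of the arrays. Lyve1 (-0.14) was 0.19 after quantile scaling, 0.02 after cyclic loess, 0.07 with the 75th percentile over detected probes and 0.15 in the deposited table, and Cd163 (-0.16) was 0.04 and 0.13 in the last 2 of these. Fcna (-0.53), Folr2 (-0.65), Mrc1 (-0.81), F13a1 (-0.78), Pf4 (-0.66), Fcgr1 (-0.50) and Cx3cr1 (-0.62) stayed below 0 under every alternative run. Keeping only genes above background on all 4 arrays, 1 of these alternatives, could change none of them. Both Adgre1 probes were lower on KO GF (-0.88 and -0.95). Over the same 2 arrays the epithelial markers had a median of 0.65 and the general macrophage genes a median of -0.89, and their part in the differences of the 10 genes was not tested.

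Within SPF housing, Cd163 was the 1 gene of the 10 at least 2-fold higher in KO-labelled than WT cells, by 2.31-fold (1.21), where 5.61% of all genes were so. With normexp background correction the Cd163 difference was 0.53. 0 of the 10 genes were at least 2-fold lower, where 6.61% were, and 7 of the 10 differences were below 0, as were 55.7% of all genes. The median was -0.25, against -0.06 over all genes.

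Fcna (0.59) and Pf4 (0.19) were the others above 0 in SPF cells. The Fcna value rests on levels near the low end, where it was 1.7 times the spot SD of the difference, and those of Folr2 (-0.24) and Lyve1 (-0.25) were 1.8 and 0.9 times theirs. In GF cells the Lyve1 and Cd163 differences were 1.6 and 1.5 times theirs. F13a1 (-0.16) was 0.05 when both its probes were averaged. Mrc1 (-0.30), Adgre1 (-0.29), Fcgr1 (-0.46) and Cx3cr1 (-0.47) were more than 2 times the spot SD, as measured by printing error alone. That yardstick is narrow. The error given by the scanner software for these probes was at least 0.144 on each SPF array, against spot SDs of the difference from 0.078 to 0.116. For 3 of 10 genes, Fcna, Cd163 and Pf4, the genotype difference had opposite signs in the 2 housings, as it had for 47.3% of all genes. Which genes did so depended on the processing: F13a1 did with the mean of its probes, Cd163 did not in the deposited table and with the percentile over detected probes, and Lyve1 did under both of these and after quantile and cyclic loess scaling.

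**Figure D4:**
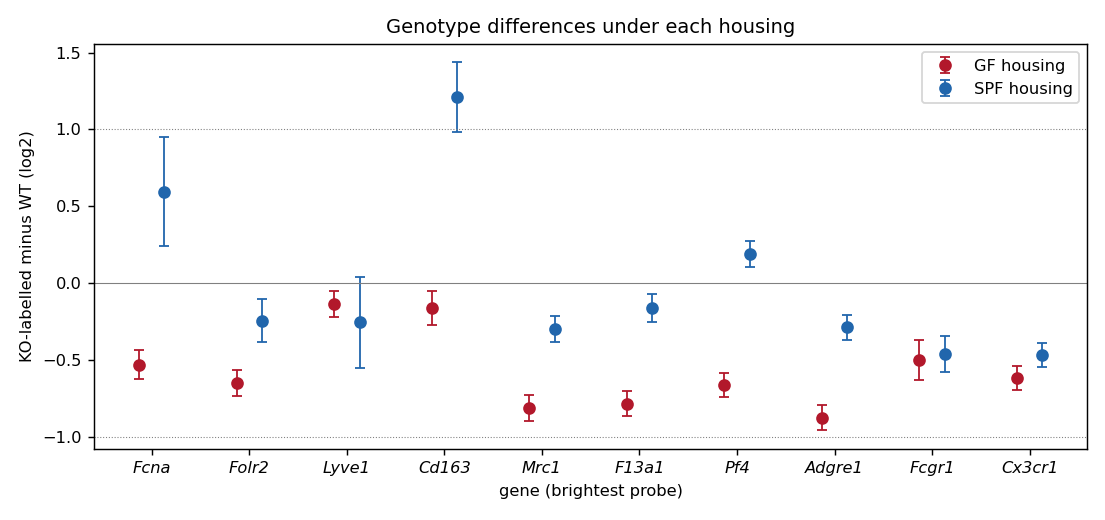
KO minus WT difference (log2) of each of the 10 genes under GF and SPF housing, each point 1 pair of arrays with the spot SD of the difference as a bar. All GF points lie between -0.88 and -0.14 and the SPF points between -0.47 and 1.21, with Cd163 alone beyond the 2-fold line; the GF signs of Lyve1 and Cd163 turn under other scalings.

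The genes whose pattern over the 4 arrays was most like that of Fcna, Folr2 and Lyve1 were found among 12879 genes above background on all arrays, by the root mean square distance between each gene's centred levels and the mean centred profile of the 3. The nearest 10 were Cldn23 (0.373), Cbr2 (0.393), Epcam (0.400), Bspry (0.418), Tcim (0.445), Tmem54 (0.461), Prom1 (0.463), Perp (0.475), Slc40a1 (0.490) and Tspan8 (0.491). Cbr2 was on the list of resident macrophage genes, Epcam on that of epithelial markers and Slc40a1 on that of iron handling. The others were on none of the lists, which are short. List membership therefore does not give the share of epithelial genes among the 10. Cldn23, a claudin of tight junctions, had levels of 1.58 on KO GF and 1.08 on WT GF, against -3.24 on KO SPF and -3.64 on WT SPF. Among the other 7 of the 10 genes, F13a1 ranked 64, Cd163 163, Pf4 344 and Mrc1 775, while Adgre1 ranked 10361, Cx3cr1 10740 and Fcgr1 10812. With 4 arrays this is a likeness of level patterns only.

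The housing differences of Fcna, Folr2 and Lyve1 were at least 2-fold upward under the main values and all 8 alternatives. This contrast chose the 3 genes, so the ranges describe them and support nothing. Each has 1 probe, above background on all 4 arrays. The mean of all probes and the filter on all 4 arrays could therefore not change them. Fcna ranged from 3.05 to 4.89 in KO-labelled and from 3.74 to 5.68 in WT cells, Folr2 from 3.46 to 4.2 and from 3.91 to 4.27, and Lyve1 from 4.22 to 6.2 and from 4.24 to 5.75. Mrc1 in KO-labelled cells fell short of 2-fold with normexp background correction (0.91).

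**Figure D5:**
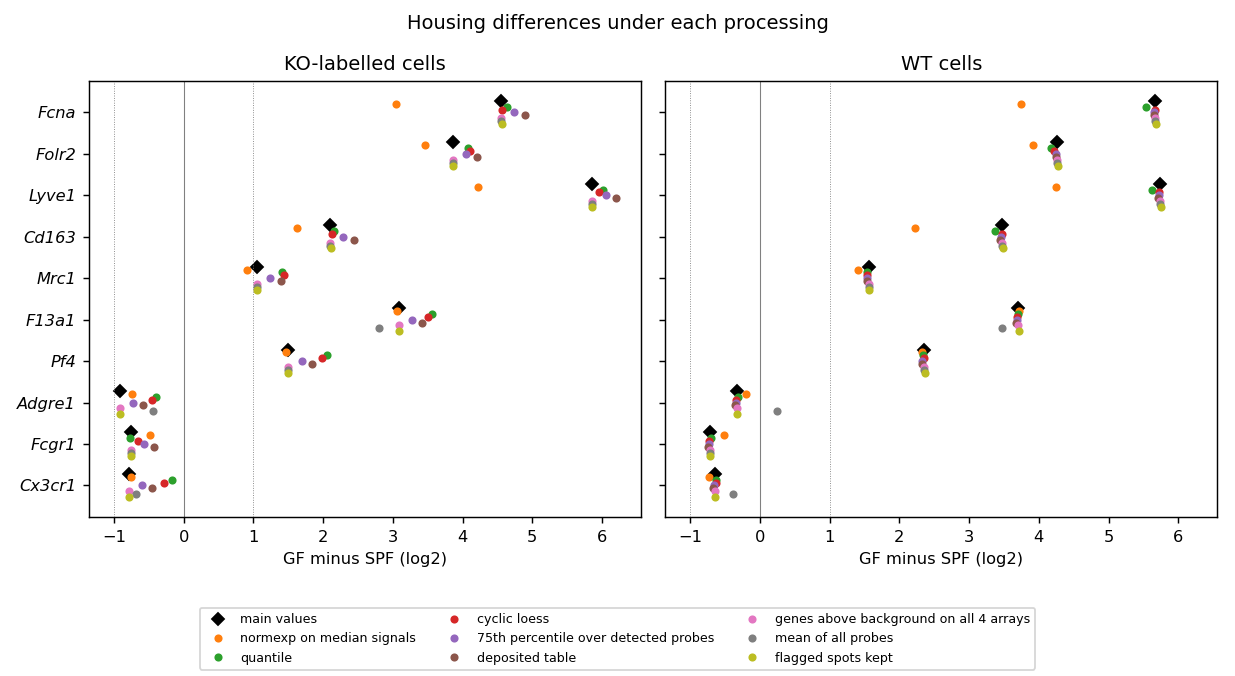
GF minus SPF difference (log2) of each of the 10 genes under the main values (black diamonds) and 8 alternative processings (coloured points). With normexp background correction the Fcna difference is 3.05 in KO-labelled and 3.74 in WT cells and that of Lyve1 is 4.22 and 4.24, the lowest points of both genes, and Adgre1 in WT cells turns to 0.24 with the mean of its probes.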

How the data were processed

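Per the file headers, the deposited scanner files (Agilent Feature Extraction 10.10.1.1, protocol GE1_1010_Sep10, design on mm9) hold a background-subtracted processed signal intensity per spot. Per the labels' protocols, RNA was amplified as cDNA and labelled with Cy3. The deposited table of intensity values was, set against those files, the processed signal times 7.96 (KO GF), 7.08 (WT GF), 8.24 (KO SPF) and 8.30 (WT SPF), with column medians of 331.4, 235.7, 216.3 and 237.2. It is linear and genes are not centred, and the rule behind the factors is unknown.

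Computed here were log2 of the processed signal minus each array's 75th percentile, without 3671 control spots and flagged spots. Spots of a probe were averaged and 84 probes with all spots flagged on an array were dropped. Accessions matched to RefSeq transcripts (GRCm38.p6) named 27185 of 55597 probes, and the probe of highest mean stood for a gene. A difference counted where the gene was above background on at least 1 array of the pair, and against a dim array a bound was given. The steps were tested on simulated data. The number of arrays, 1 a group, limits the precision, and no p-value was computed.

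The alternatives were normexp background correction (limma 3.58.1, offset 50, median signals, as mean signals were not used here), quantile and cyclic loess scaling, the percentile over detected probes, the deposited table, genes above background on all 4 arrays, the mean of all probes, and flagged spots kept. R 4.3.3 and Python 3.11.15 were used. The 10 genes and the 14 other gene lists were chosen with earlier results of these data known. Named from a list were genes at least 2-fold different one way in both housing comparisons (at most 4 with values) and at most the highest 2 and lowest 2 others of a comparison, further names being given after their values were seen. The 10 genes nearest in pattern were named as well. Of 142 listed genes 137 were on the arrays under a name, the others being Cd68, Ly6c2, Itgae, Ccl21a and Ly6g.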

Additional observations from a re-analysis of the deposited data

Results flagged for a closer look

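Among the 10 genes and the 16 other resident macrophage genes, 5 had a KO over WT difference above 0 in SPF cells and below 0 in GF cells, each from 1 pair of arrays, and the difference between the housings was not tested. In either order of signs, these 5 were the only ones of these genes under the main values. Opposite signs were found for 47.3% of all genes, a larger share, so the 5 do not stand out from the background. Genes of other lists had them too, such as Il10 (-1.74 under GF and 1.39 under SPF housing). For Fcna the KO over WT difference was -0.53 under GF and 0.59 under SPF housing (0.23 with normexp), which are -1.12 apart. For Cd163 it was -0.16 under GF and 1.21 under SPF housing, -1.37 apart, and the GF value was above 0 in the deposited table (0.13) and with the percentile over detected probes (0.04). For Pf4 it was -0.66 under GF and 0.19 under SPF housing (0.02 after quantile scaling), -0.85 apart. Of the other resident macrophage genes, Timd4, a phosphatidylserine receptor, had -0.46 under GF and 1.77 under SPF housing, -2.23 apart, and Mgl2 had -0.68 and 0.16, -0.84 apart.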

How the results depend on the processing

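Of 320 differences of the 10 genes recomputed under 8 alternatives, 310 kept their direction and their side of the 2-fold line. Part of the 320 could not change. The filter on all 4 arrays keeps every value of the 10 genes, as all were above background on all 4. The mean of all probes leaves the 7 genes with 1 probe as they were. The count of 310 is therefore no measure of stability. With normexp background correction 0 of the 10 genes were at least 2-fold higher in KO-labelled over WT SPF cells, against 1 in the main values, as Cd163 was 0.53, and Mrc1 was 0.91 in the KO housing pair. The other changes of side or sign are given beside Lyve1, Cd163, Adgre1 and F13a1. Over all genes, normexp lowered every count: 1222 higher and 1250 lower against 3363 and 2400 (KO housing), 1007 and 442 against 2734 and 1478 (WT housing), 294 and 354 against 1382 and 1220 (GF genotype), and 180 and 93 against 835 and 983 (SPF genotype). The GF genotype counts were 2013 and 702 with the percentile over detected probes and 2291 and 571 in the deposited table. The KO housing counts were 4016 and 1855 with that percentile and 4612 and 1501 in the deposited table. With genes above background on all 4 arrays they were 1769 and 1976 (KO housing), 1504 and 874 (WT housing), 515 and 810 (GF genotype) and 443 and 332 (SPF genotype). The deposited table moved the median of all genes by 0.34 in the KO housing pair and 0.29 in the GF genotype pair, the percentile over detected probes by 0.19 and 0.21, cyclic loess by 0.12 in the GF genotype pair, and the filter on all 4 arrays by -0.11 in the KO housing pair. The causes were not tested. No paired analysis was possible because the labels give no replicate numbers by which to pair arrays, and the differences within each genotype and each housing are given side by side instead. Leaving out an array leaves out its group, so the WT housing pair is the housing comparison without the KO arrays. A slide block could not be fitted to housing, since each slide held 1 housing.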

Other observations

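Some of the other resident macrophage genes passed 2-fold between genotypes. Cd209f was lower in KO-labelled cells of both housings, -1.26 under GF and -1.11 under SPF. Cd209g was lower by more under GF housing (-1.53). Under SPF housing it was not well above background in KO-labelled cells and at least 1.205-fold lower there. Ccl24, an eosinophil-attracting chemokine, and Ednrb, the endothelin receptor type B, passed it under SPF and not under GF housing (the difference was not tested), with -0.59 under GF and -1.20 under SPF for Ccl24 and 0.18 and 1.60 for Ednrb. In KO-labelled over WT cells, 0 of the 16 genes passed 2-fold upward and 2 downward under GF housing, and of 15 measured under SPF housing 2 passed it upward and 2 downward. Over all genes the shares were 8.81% upward and 7.77% downward under GF and 5.61% upward and 6.61% downward under SPF housing. Their medians were -0.67 under GF and -0.27 under SPF housing.

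Il10, an anti-inflammatory cytokine of gut macrophages, was read at 1.41 on KO GF and 3.15 on WT GF, against 5.46 on KO SPF and 4.07 on WT SPF. Its KO over WT difference was -1.74 under GF and 1.39 under SPF housing, and its GF over SPF difference was -4.05 in KO-labelled and -0.93 in WT cells. Ccr7, which guides dendritic cells to lymph nodes, showed the same order of arrays, with -0.54 on KO GF and 1.37 on WT GF, against 4.01 on KO SPF and 1.91 on WT SPF. Both genes were chosen after their values were seen.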
